A study of Mus musculus with 5 samples.

Results

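DNaseI hypersensitive sites (DHSs), stretches of chromatin open enough to be cut by the nuclease DNase I, were compared between the hemangioblast (HB) and the hematopoietic progenitor (HP) populations of a mouse differentiation series. Each deposited site of the 2 lists was replaced by 500 bp centered on it, and such windows were joined where at least 25% of their length coincided. Chromosome M was left out, which removed 4 HP sites. This gave 29723 regions, against 68842 when all 5 lists of the series were merged in the same way. HB held 24729 of the regions and HP 17730. A region was called HB-only, HP-only or shared according to the list or lists that had a window in it, and positions are those of build mm10.

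The cells were differentiated in vitro from 1 mouse embryonic stem cell line of strain 129, in which GFP reports the expression of Brachyury (Bry), and all stages share that reporter. The HB population was sorted from embryoid bodies as Bry:GFP+ and Flk1+, and the HP population was sorted as CD41+. The other stages, used here only to place the regions, were mesoderm (MES), hemogenic endothelium (HE) and macrophages (MAC). Every stage was 1 list from 1 line, so there is no spread between replicates, and no difference between stages could be tested. The title of the MAC list names 2 replicates, which unlike the other stages it gives together. Intervals in the text are 95% intervals for counting error over regions or genes alone.

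The hemangioblast is a mesodermal precursor that can give rise to endothelium, smooth muscle and blood. On the way to blood it passes through hemogenic endothelium, whose cells round up and detach as they become hematopoietic progenitors, a step known as the endothelial-hematopoietic transition, which requires the transcription factor RUNX1. CD41, the integrin alpha subunit encoded by Itga2b, is among the earliest surface markers of the emerging blood cells. Regulatory elements lie both at promoters and far from them, and the distant ones are generally the more cell type specific.

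To show what the stage-specific elements look like, the central 200 bases of regions beyond 2 kb from any protein-coding transcription start site (TSS) are given here from the GRCm38.p6 reference, the sequence of mm10, 5′ to 3′ on the + strand. Capitals mark exact matches, on either strand, to the consensus letters of TEAD (CATTCC), TCF7L (CTTTGA), T-box (AGGTGTGA), the octamer bound by POU factors (ATGCAAAT), GATA factors (AGATAA), RUNX (TGTGGT), AP1 (TGANTCA) and PU.1 (GAGGAAGT). The first set holds the regions with the widest deposited site near a gene of the lists described below, because width is the only property of a site in the files. The HB-only region 4.619 kb upstream of Mesp1, which encodes a basic helix-loop-helix factor of early cardiovascular mesoderm, had a site of 2500 bp. The nearest HP site lay 5287 bp from the Mesp1 start site. Classes rest on 500 bp around site middles, so this wide HB site may overlap that HP site as deposited. The HB-only region in an intron of Smad6, which encodes an inhibitor of BMP signaling, had a site of 2200 bp. On the HP side stand an intron of Vav1, a signaling gene of blood cells, with a site of 1400 bp, and an intergenic region 40.019 kb from Ccn2, a target gene of YAP and TEAD, with a site of 1300 bp.
Mesp1, HB only, chr7:79798109-79798308: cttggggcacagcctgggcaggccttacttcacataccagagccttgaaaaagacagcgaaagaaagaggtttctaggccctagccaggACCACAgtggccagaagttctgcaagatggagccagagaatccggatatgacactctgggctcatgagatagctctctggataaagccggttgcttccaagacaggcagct
Smad6, HB only, chr9:64017901-64018100: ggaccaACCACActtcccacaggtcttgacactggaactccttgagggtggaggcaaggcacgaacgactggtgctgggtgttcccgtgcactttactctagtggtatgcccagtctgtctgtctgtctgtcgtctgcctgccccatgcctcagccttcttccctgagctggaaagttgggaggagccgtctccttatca
Vav1, HP only, chr17:57290492-57290691: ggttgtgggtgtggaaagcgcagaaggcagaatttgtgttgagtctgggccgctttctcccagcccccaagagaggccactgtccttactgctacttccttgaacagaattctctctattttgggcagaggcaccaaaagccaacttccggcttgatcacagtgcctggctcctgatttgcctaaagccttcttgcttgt
Ccn2, HP only, chr10:24635361-24635560: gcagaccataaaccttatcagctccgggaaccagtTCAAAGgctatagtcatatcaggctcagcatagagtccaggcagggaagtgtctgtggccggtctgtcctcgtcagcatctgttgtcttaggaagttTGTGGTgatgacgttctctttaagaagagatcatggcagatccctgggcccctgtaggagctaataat

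The second set was chosen after its values were seen. It holds the regions of 3 list genes in HB and 2 of the 3 in HP that were ranked first by kinds of consensus and then by width, and the widest HP-only site beside Runx1. HB-only regions were ranked on T-box, TEAD, TCF7L and GATA letters and HP-only regions on RUNX, GATA, AP1 and PU.1 letters, so these matches follow from the choice and say nothing of the classes. An intergenic HB-only region 28.745 kb from Gsc, a homeobox gene of the primitive streak, carried 2 T-box matches with 1 GATA and 1 TCF7L match. The HB-only region 77.223 kb from Bmp7, which encodes a BMP ligand, carried 2 TEAD matches beside 1 GATA and 1 TCF7L match. The HB-only region 13.187 kb from Csf2ra, a cytokine receptor gene of myeloid cells, carried 2 GATA matches with 1 TEAD and 1 TCF7L match. The HP-only region 12.043 kb from Was, an actin regulator of blood cells, carried 3 GATA, 2 AP1, 1 RUNX and 1 TCF7L match, the AP1 matches both spelled TGAGTCA. In an intron of Etv6, an ETS factor gene, the RUNX and GATA letters overlapped and ran straight into a TEAD match at the start of the printed stretch. The intronic region of Runx1 held 2 RUNX matches, in opposite orientation and close together.
Gsc, HB only, chr12:104501881-104502080: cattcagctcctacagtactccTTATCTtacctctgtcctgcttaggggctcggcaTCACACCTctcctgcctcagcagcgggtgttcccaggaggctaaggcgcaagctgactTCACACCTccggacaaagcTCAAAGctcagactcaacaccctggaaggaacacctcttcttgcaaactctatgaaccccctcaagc
Bmp7, HB only, chr2:172862998-172863197: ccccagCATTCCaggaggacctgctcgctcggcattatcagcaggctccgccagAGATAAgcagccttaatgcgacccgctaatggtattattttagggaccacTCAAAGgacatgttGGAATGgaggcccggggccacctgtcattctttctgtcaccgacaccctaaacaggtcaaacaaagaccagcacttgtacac
Csf2ra, HB only, chr19:61215131-61215330: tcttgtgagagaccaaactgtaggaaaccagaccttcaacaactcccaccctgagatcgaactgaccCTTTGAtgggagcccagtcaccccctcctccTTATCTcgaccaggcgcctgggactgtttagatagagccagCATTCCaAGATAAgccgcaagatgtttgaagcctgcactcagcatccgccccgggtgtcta
Was, HP only, chrX:8102434-8102633: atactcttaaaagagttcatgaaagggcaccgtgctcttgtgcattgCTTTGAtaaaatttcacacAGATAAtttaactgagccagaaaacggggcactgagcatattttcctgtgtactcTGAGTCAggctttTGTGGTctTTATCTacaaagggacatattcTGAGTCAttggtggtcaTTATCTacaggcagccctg
Etv6, HP only, chr6:134090207-134090406: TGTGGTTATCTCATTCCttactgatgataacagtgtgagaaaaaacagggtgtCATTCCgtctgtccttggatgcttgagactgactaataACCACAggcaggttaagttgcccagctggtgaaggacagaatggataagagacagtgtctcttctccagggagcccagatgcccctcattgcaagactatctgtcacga
Runx1, HP only, chr16:92822260-92822459: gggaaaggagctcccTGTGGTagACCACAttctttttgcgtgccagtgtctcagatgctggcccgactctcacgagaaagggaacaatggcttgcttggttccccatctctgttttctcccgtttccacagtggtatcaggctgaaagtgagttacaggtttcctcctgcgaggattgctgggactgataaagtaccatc

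These letters are common. In windows of 200 bases, TEAD letters were present in 17.6% of the 17327 HB and HP regions beyond 2 kb and in 10.6% of genome windows, and RUNX letters in 17.5% and 13.9%. GATA letters were present in 18.1% and 13.6%, TCF7L letters in 15.9% and 15.5%, and AP1 letters in 10.7% and 6.00%. T-box letters were rarer, at 1.87% and 0.822%, as were PU.1 letters at 2.42% and 1.21% and the octamer at 1.25% and 1.83%.

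To ask how far the open chromatin of the 2 stages coincides, the regions were counted by class. HB-only regions numbered 11993, or 40.3% of all regions (39.8 to 40.9). HP-only regions numbered 4994, or 16.8% (16.4 to 17.2), and 12736 regions were shared. The shared regions made up 51.5% of the HB regions (50.9 to 52.1) and 71.8% of the HP regions (71.2 to 72.5). The HB list was longer by 6999 sites, and deeper sequencing and more open chromatin cannot be told apart from these lists. A region missing from a list is one where no site was called. When the HB list was cut to its widest sites until it was as long as the HP list, each stage had 6340 regions of its own, which are equal by construction.

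Sites found in a single list were narrow. The deposited HB-only sites had a median width of 700 bp and the HP-only sites 600 bp, whereas shared sites had medians of 1200 bp in HB and 1000 bp in HP. A width of at least 1000 bp was reached by 22.7% of HB-only and 9.31% of HP-only sites. Of shared sites, 72.8% reached it as listed in HB and 55.5% as listed in HP. Within shared regions, the middles of the HB and the HP site lay a median of 64 bp apart, and 71.0% lay within 100 bp. The HB site was the wider of the pair in 69.3% of shared regions and the HP site in 14.5%. Some single-list regions lay close to a site of the other list. The window of 272 HB-only regions (2.27%) touched a deposited HP site, and that of 376 HP-only regions (7.53%) touched a deposited HB site. Merging compared windows with windows. Deposited sites that overlap only outside a single-list window are not in these counts.

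The shared regions were mostly promoters, and the stage-specific ones mostly were not. A region within 2 kb of a curated protein-coding TSS was called a promoter region, one up to 20 kb away proximal, and one further off distal. Promoter regions were 71.6% of the shared class, 21.9% of the HB-only class (21.1 to 22.6) and 13.2% of the HP-only class, against 3.45% of regular windows across the genome. Distal regions made up 13.0% of the shared, 46.9% of the HB-only and 50.6% of the HP-only class. HB-only regions were more often promoters than HP-only regions by 8.66 points (7.45 to 9.84), and less often in introns, 37.1% against 46.5%. Beyond 2 kb, the median distance to a start site was 28.7 kb for HB-only, 26.6 kb for HP-only and 17.8 kb for shared regions.

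**Figure D1:**
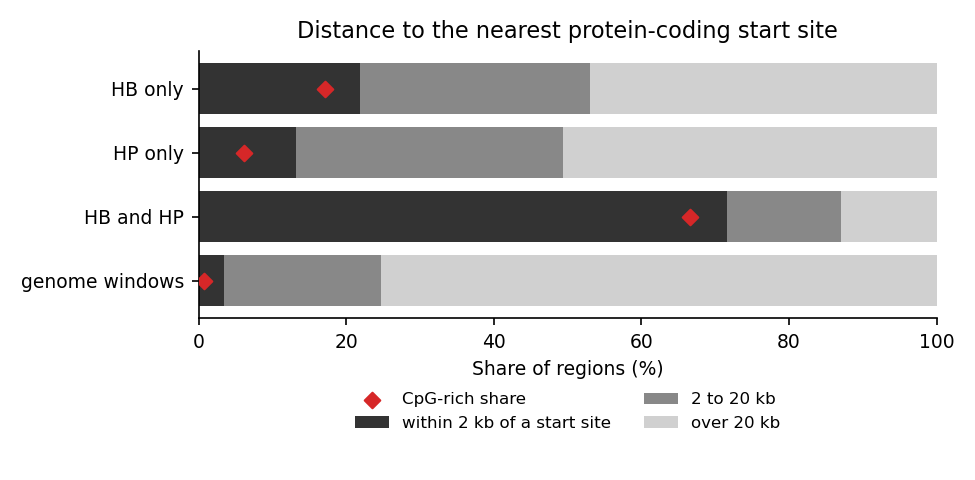
Share of regions (%, stacked bars) within 2 kb, from 2 to 20 kb and over 20 kb from the nearest protein-coding start site, for HB-only, HP-only and shared regions and genome windows, with a diamond at the CpG-rich share of each. Promoter regions form 71.6% of the shared class but 21.9% and 13.2% of the HB-only and HP-only classes.

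Many vertebrate promoters lie in stretches rich in CpG dinucleotides. By the usual criteria for the central 500 bp, a GC share of at least 0.5 and an observed to expected CpG ratio of at least 0.6, 66.6% of shared, 17.1% of HB-only and 6.13% of HP-only regions were CpG-rich. Keeping sites no narrower than their list's median gave 35.5% of HB-only and 18.3% of HP-only regions, and merging the deposited intervals gave 3.11% of HP-only regions. The HB-only share exceeded the HP-only share by 11.0 points (10.0 to 11.9). This held among promoter regions, where 57.7% of HB-only and 38.2% of HP-only regions were CpG-rich against 85.5% of shared ones, and beyond 2 kb, where the shares were 5.77%, 1.25% and 18.8%. The median GC content beyond 2 kb was 51.2% in HB-only and 49.0% in HP-only regions, and 41.4% in genome windows. Repeat sequence filled a mean of 11.3% and 12.3% of these regions against 37.0% of genome windows.

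To see where along the differentiation series the elements of HB and HP were also open, each region was compared with the lists of the other stages, which took no part in choosing it. Of the HB-only regions, 51.7% (50.9 to 52.6) were also listed in MES, 35.4% in HE and 12.8% in MAC. Of the HP-only regions, 8.53% were listed in MES (7.79 to 9.34), 56.3% in HE and 33.7% in MAC. The HB-only share was higher by 43.2 points in MES (42.0 to 44.4) and lower in HE, by a difference of -21.0 points (-22.6 to -19.4). Shared regions were present in all of MES, HE and MAC in 69.0% of cases. In none of the other lists were 3890 HB-only regions (32.4%) and 1555 HP-only regions (31.1%), which are therefore regions of 1 stage in this series. The lists of HE and MAC are longer than those of HB and HP, and HE sites were the widest, with a median of 1200 bp, so shares are best compared between classes within 1 list.

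Promoters and distant elements followed different courses. Among promoter regions, HB-only regions were listed in HE in 53.2% of cases and HP-only regions in 48.9%, a difference of only 4.32 points (0.0586 to 8.57). Beyond 2 kb the corresponding shares were 30.4% and 57.5%. Beyond 2 kb, therefore, fewer HB-only than HP-only regions were listed in HE, a difference of -27.1 points (-28.8 to -25.4). In MES the contrast was similar at both kinds of region, 67.2% against 26.1% at promoters and 47.4% against 5.86% beyond 2 kb. HP-only regions listed in HE and no other stage were 30.8% of the class, and those listed in HE and MAC but not MES were 20.9%.

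**Figure D2:**
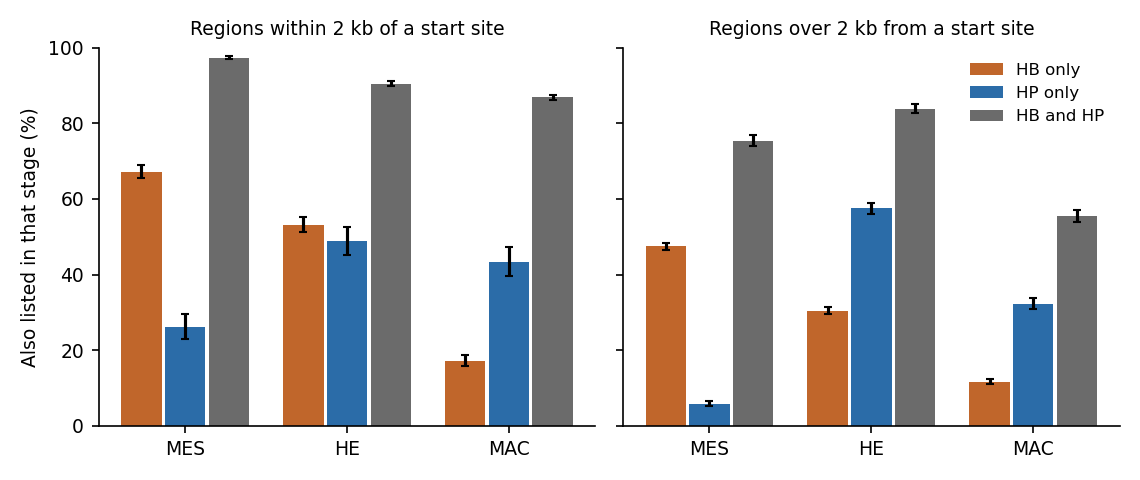
Share of HB-only, HP-only and shared regions (%) that were also listed in MES, HE and MAC, for promoter regions and regions beyond 2 kb, with 95% Wilson intervals for counting error. HB-only regions are highest in MES in both panels, and HP-only regions beyond 2 kb are highest in HE.

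The chromosomes did not share the single-list regions in the same proportion. HP-only regions made up 29.4% of all single-list regions (28.7 to 30.1). Leaving out Y, the proportion was lowest on X, at 18.3% (14.0 to 23.5), and was 22.6% on chromosome 14 and 22.8% on chromosome 12. It was highest on chromosome 3, at 35.0% (31.7 to 38.5), and on chromosome 8, at 34.8%.

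Genes were then grouped by their promoters, a promoter counting as open in a stage when a deposited site came within 1 kb of any curated TSS of the gene. Of 21000 protein-coding genes, 10030 (47.8%) had a promoter site in both stages, 2063 (9.82%) in HB only, 259 (1.23%) in HP only and 8648 in neither. These shares are the background for the gene groups that follow. With the HB list cut to the length of the HP list, 1392 genes were HB-only and 562 HP-only. HB-only promoters were listed in MES for 72.0% of the genes, in HE for 75.0% and in MAC for 22.5%. HP-only promoters were listed in MES for 25.9%, in HE for 79.5% and in MAC for 49.8%. Each gene was also given the regions beyond 2 kb for which its start site was the nearest. More HB-only than HP-only such regions were found at 3931 genes (18.7%) and the reverse at 1778 genes (8.47%). Over all regions beyond 2 kb there were 9372 HB-only and 4335 HP-only regions, or 2.16 HB-only for each HP-only region, which is the level against which the groups' region counts are read.

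The labels of the 2 populations were checked against marker genes. Of 8 hemangioblast markers, 5 had a promoter site in HB only, namely T (Brachyury, the gene behind the reporter), Pdgfra, Mixl1, Eomes and Mesp1, and the other 3, Kdr (Flk1), Tal1 and Etv2, had it in both. Of 10 hematopoietic progenitor markers, Itga2b (CD41), Spi1 and Pf4 had a promoter site in HP only, Kit and Runx1 in both, and the other 5, among them Gfi1b, Gata1, Myb and Ptprc, in neither. Markers of other cells were also looked up. Of 6 hemogenic endothelium markers, Tie1 and Pecam1 had a promoter site in HP only, 1 had it in both and 3 in neither. Macrophage markers had a site in 1 stage at 0 of 9 promoters and in both at 2, and lymphoid markers in 1 stage at 0 of 12 and in both at 1. Neurod1 of the 8 neural markers and Foxa2 of the 8 endoderm and liver markers had a site in HB only, and 5 neural markers had it in both. Beyond 2 kb, neural markers had 11 HB-only and 2 HP-only regions, with more HB-only regions at 62.5% of them, and endoderm and liver markers had 4 and 1, with more HB-only regions at 37.5%, where 18.7% of all genes had more. With sites no narrower than their list's median, progenitor markers had 1 HP-only and 1 HB-only promoter and hemogenic endothelium markers 0 HP-only promoters. Hemangioblast markers then had 7 HB-only promoters. The part of other cell types in either list was not tested.

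Factors of the primitive streak and early mesoderm were one-sided toward HB. Of 18 genes, 8 had a promoter site in HB only, 0 in HP only, 6 in both and 4 in neither, beside the background of 9.82% for HB only. The 8 were T, Mixl1, Eomes, Mesp1, Mesp2, Evx1, Gsc and Nodal. Beyond 2 kb the 18 genes had 54 HB-only, 5 HP-only and 5 shared regions, and 16 genes had more HB-only regions against 0 with more HP-only. At T, on chromosome 17 with its start at 8434423, there were 5 HB-only regions and none of HP, and the nearest HP site lay 61632 bp from a start site. At Eomes, a T-box factor gene on chromosome 9, there were 8 HB-only regions, from 93.338 kb upstream to 11.562 kb downstream, and 1 shared region 88.524 kb upstream. Evx1 and Gsc, both homeobox genes, had 5 and 4 HB-only regions beyond 2 kb with none of HP. Nodal, the ligand that patterns the streak, had 3 HB-only regions up to 11.795 kb from a start site, all 3 also listed in MES.

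Genes of cardiac mesoderm, a fate that also leaves Flk1+ mesoderm, showed a similar split. A promoter site was present in HB only at 6 of 14 genes, Gata5, Gata6, Tbx5, Mef2c, Smarcd3 and Tbx2, in HP only at 0, in both at 5 and in neither at 3. Their regions beyond 2 kb were 50 HB-only, 4 HP-only and 3 shared. Tbx2, a T-box repressor gene, had 8 HB-only regions and 1 shared one, and its neighbor in the family Tbx3 had 11 HB-only, 0 HP-only and 2 shared regions. Gata6 and Tbx5 each had 5 HB-only regions beyond 2 kb and none of the other classes. The nearest HP site to a start site of Gata6 was 299390 bp away. Tbx5 was listed at its promoter in none of the other stages, while Gata6 was listed in MES and HE.

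Pluripotency and Wnt genes leaned toward HB at promoters and beyond 2 kb, and adhesion genes at promoters. Of 15 pluripotency genes, 6 had HB-only promoters (Nanog, Sox2, Esrrb, Zfp42, Lin28a and Prdm14) and 0 had HP-only ones, with 20 HB-only and 3 HP-only regions beyond 2 kb. Sall4, a zinc finger factor gene, had its promoter site in both stages but 7 HB-only and 0 HP-only regions beyond 2 kb. Of 21 Wnt pathway genes, 8 were HB-only at the promoter: the ligands Wnt5a, Wnt5b, Wnt8a and Wnt2b, the co-receptor Lrp6, the secreted inhibitor Dkk1, the secreted activator Rspo3 and the nuclear effector Lef1. The 1 HP-only Wnt promoter was that of Lrp5, the other co-receptor, and the list had 42 HB-only against 6 HP-only regions beyond 2 kb. An HB site lay 1067 bp from a Lrp5 start site, just past the limit of 1 kb. With sites within 2 kb the Wnt list had 8 HB-only and 0 HP-only promoters. Of 22 adhesion and matrix genes, 9 were HB-only and 0 HP-only at the promoter: the integrin subunits Itga5 and Itgav, the basement membrane genes Col4a1, Col4a2 and Lamb1, N-cadherin (Cdh2), Pdgfra, and Twist1 and Zeb2, which encode repressors of the epithelial state. Col4a1 and Col4a2 share a bidirectional promoter, so their promoters count as 1 place. Beyond 2 kb the adhesion list had 34 HB-only and 20 HP-only regions, or 1.70 HB-only for each HP-only region. More HB-only regions were found at 54.5% of its genes and more HP-only regions at 22.7%, against 18.7% and 8.47% of all genes. Of the BMP list, 12 of 18 promoters were open in both stages, beside 47.8% of all genes, and only Bmp7 was HB-only. Beyond 2 kb that list had 44 HB-only, 16 HP-only and 16 shared regions, or 2.75 HB-only for each HP-only region beside 2.16 over all regions. Msx2 and Smad7, both targets of BMP signaling, had 8 and 7 HB-only against 2 and 2 HP-only regions.

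Genes of differentiated blood lineages leaned toward HP. Of 18 megakaryocyte and platelet genes, 4 had a promoter site in HP only (Itga2b, Pf4, Fermt3 and Tubb1), 0 in HB only, 3 in both and 11 in neither, beside a background of 1.23% for HP only. Pf4 encodes platelet factor 4, Fermt3 an activator of integrins in blood cells and Tubb1 the tubulin of platelets. At Pf4 the nearest HB site was 118665 bp away. Itgb3, whose product pairs with CD41, was open at the promoter in both stages and had 3 HP-only, 1 shared and 0 HB-only regions beyond 2 kb. Of 16 erythroid genes, 4 were HP-only at the promoter, among them the embryonic globin gene Hba-x and Epb42, a gene of the red cell membrane skeleton, and 0 were HB-only. Hba-x had a promoter site in no other list of the series, whereas Epb42 was also listed in HE. The leukocyte list had 3 HP-only promoters, Itgb2, Rac2 and Cd44, 1 HB-only promoter, Coro1a, and 15 of 22 genes with a site in neither. All of Itgb2, Rac2 and Cd44 were also listed in HE and MAC.

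Of 28 blood transcription factors, 17 (60.7%) had a promoter site in both stages, beside 47.8% of all genes, 3 in HP only (Spi1, Ikzf1 and Runx3), 2 in HB only (Gfi1 and Mecom) and 6 in neither. Their regions beyond 2 kb were 27 HB-only, 26 HP-only and 24 shared, or 1.04 HB-only for each HP-only region beside 2.16 over all regions. More HB-only regions were found at 9 of these genes (32.1%) and more HP-only regions at 8 (28.6%), against 18.7% and 8.47% of all genes. Spi1, which encodes the myeloid factor PU.1, had 2 HP-only regions within 1 kb of its start sites and 2 shared regions, at 3.621 kb upstream and 4.884 kb downstream. Ikzf1, encoding Ikaros, had 2 HP-only regions, and the nearest HB site lay 98130 bp from a start site. Tal1, required for blood formation from mesoderm, had 3 shared regions and 1 HP-only region 8.211 kb upstream that was also listed in HE and MAC. Gata2 had shared regions at its promoter and 3.898 kb upstream, flanked by HP-only regions 6.834 kb upstream and 4.593 kb downstream. The promoter of Gfi1, whose product represses endothelial genes during blood formation, was listed in HB and HE and not in HP.

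Endothelial genes were split. Of 21, the promoters of Flt1, Erg, Sox7 and Egfl7 were HB-only, those of Tie1, Pecam1 and Icam2 were HP-only, 5 were in both and 9 in neither. All 7 of these single-stage promoters were also listed in HE, the stage between, as were 75.0% of all HB-only and 79.5% of all HP-only promoters. At Flt1, which encodes a VEGF receptor, 3 HB-only and 3 HP-only regions and 0 shared regions were found. All 3 HP-only regions of Flt1 were also listed in HE. In contrast to these groups, the 20 ribosomal protein genes, a control list, had a promoter site in both stages in all 20 cases. The Hippo list was open in both stages at 18 of 22 promoters, with Tead4 and Amotl1 in HB only and Ankrd1, a YAP target, in HP only.

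**Figure D3:**
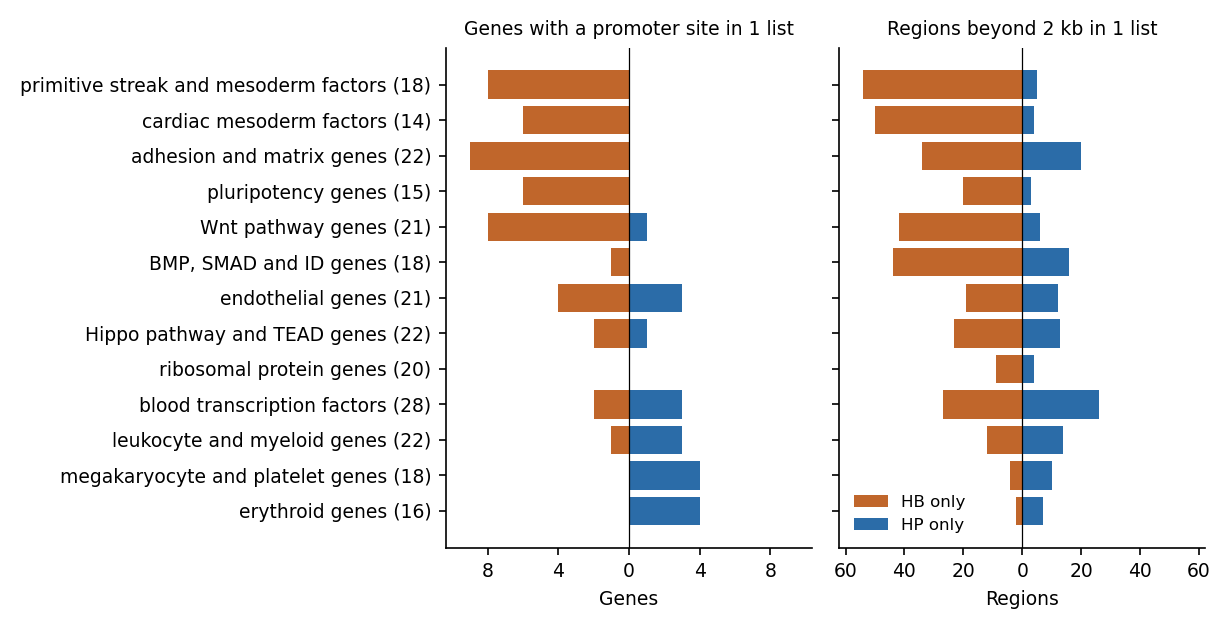
Number of genes of each list with a promoter site in HB only (bars to the left) or in HP only (to the right), and number of their regions beyond 2 kb of each class, with the size of the list in parentheses. Streak, cardiac and pluripotency lists have 0 HP-only promoters, and megakaryocyte and erythroid lists have 0 HB-only promoters.

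The members of these lists were selected with earlier results of these data known, and each list's counts are descriptions. When the promoter distance, the least site width and the length of the HB list were varied, the streak, cardiac and pluripotency lists had 0 HP-only promoters in each of these settings, while the endothelial list moved between 0 and 4 HP-only promoters. Sites within 100 bp left the leukocyte list 1 HP-only and 1 HB-only promoter. Keeping the wider sites took HB-only promoters from 6 to 3 in the pluripotency list, from 2 to 6 among blood factors and from 2 to 8 in the Hippo list. The megakaryocyte and erythroid lists gained 1 HB-only promoter, with sites within 2 kb for the former and with sites within 100 bp or the wider sites for the latter.

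In some places many regions of 1 stage lay nearest to the same gene. At least 5 HB-only regions within 100 kb were nearest to the same gene at 217 genes, and at least 5 HP-only regions at 20. The genes named here were chosen by these counts, which are not adjusted for the length of the stretch of genome to which a gene is nearest. Tle3, which encodes a Groucho family corepressor, had 17 HB-only regions with 0 HP-only and 4 shared. Of those 17, 6 were listed in MES, 5 in HE and 2 in MAC. Pax7, a paired box factor gene, had 12 HB-only regions and none of the other classes, Zfp423 and Septin9 had 12 each, and Tbx3 and Rgs3 had 11 each. Dlc1 had 10, and Fbln2, Rnf220 and Abr had 9 each. Of the Pax7 regions, 7 were listed in MES and 0 in HE or MAC. That stretch ran from 127.269 kb at Fbln2 to 417.606 kb at Dlc1 among the 10, so the counts give no order between genes.

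Runx1 had 11 HP-only regions, together with 5 HB-only regions and 1 shared region, within a nearest stretch of 328.336 kb on chromosome 16. Of the 11 HP-only regions, 8 were intronic and 3 intergenic, and 2 were also listed in MES, 5 in HE and 7 in MAC. HP-only and HB-only elements alternated along the gene. Near the start at 92697329, an HP-only window at chr16:92697310-92697809 and an HB-only window at chr16:92697797-92698296 overlapped by too few bases to be merged, so the promoter itself counts as open in both stages. Cbfa2t3, which encodes a corepressor of hematopoietic factor complexes, had 5 HP-only, 2 HB-only and 2 shared regions. Zfpm1, which encodes a cofactor of GATA factors, had 4 HP-only, 3 HB-only and 5 shared regions beyond 2 kb. The other genes chosen by their HP-only counts were Mgst2 and Nol4l with 6 each, and Cubn, Prkar2b, Snx9, Ubash3b, Zfp217 and Zmiz1 with 5 each. Cubn, the gene of the vitamin receptor cubilin, had a promoter site in neither stage, and all 5 of its HP-only regions were intronic and listed in HE, 4 of them in MAC as well.

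The promoter and the distant regions of a gene often fell in different classes. Genes with an HB-only promoter had at least 1 HB-only region beyond 2 kb in 36.4% of cases (34.3 to 38.5) and at least 1 HP-only region in 15.6%. For genes with an HP-only promoter the shares were 25.5% (20.6 to 31.1) and 21.6% (17.0 to 27.0), for those open in both 25.0% and 17.5%, and for those open in neither 15.8% and 7.92%. Over all 21000 genes they were 22.3% and 13.4%. Both HB-only and HP-only regions beyond 2 kb were found at 1255 genes, of which 778 had a promoter site in both stages. At 764 of the 1255, no region beyond 2 kb was shared.

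To determine which sequences distinguish the distant elements of the 2 stages, 23 consensus sequences were looked for, on either strand, within the middle 500 bp of the 9372 HB-only and 4335 HP-only regions beyond 2 kb. Their letters written backwards, without complementing, served as a control of equal base composition. In this count 10 consensus sequences were more frequent in HP-only regions, 6 in HB-only regions and 7 had an interval that included 0. The reversed letters also differed, with 9 more frequent in HP-only and 2 in HB-only regions, so the differences below are given beside those of the reversed letters.

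RUNX and AP1 letters showed the largest differences. RUNX letters (TGTGGT) were present in 47.6% of HP-only and 31.2% of HB-only regions, a difference (HB-only minus HP-only, as throughout) of -16.4 points (-18.1 to -14.6), against -2.84 for the reversed letters. Shared regions had 30.4% and genome windows 31.1%, so HB-only regions lay at the genome level for this motif. AP1 letters (TGANTCA), the site of FOS and JUN dimers, were in 32.2% of HP-only and 15.3% of HB-only regions, a difference of -16.9 points (-18.5 to -15.3), against -3.34 reversed. The narrower form TGAGTCA, looked up after the data had been seen, gave 27.1% against 10.8%. PU.1 letters (GAGGAAGT) were in 7.50% and 4.26% of regions, a difference of -3.24 points (-4.15 to -2.38) with 0.104 for the reversed letters. This motif contains the ETS core, with GGAAGT in common with the ETS letters searched (CCGGAAGT).

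GATA letters (AGATAA) were in 40.0% of HP-only and 32.4% of HB-only regions, a difference of -7.62 points (-9.36 to -5.88) against -1.95 reversed, but this varied with base composition and site choice. It was -3.80 with the HB list cut to the length of the HP list and -12.8 with sites no narrower than their list's median. Where regions were compared within bands of GC content, the GATA difference was 4.19 points (-0.641 to 8.99) at 40 to 45% GC, -1.19 (-4.27 to 1.88) at 45 to 50%, -3.25 (-6.24 to -0.305) at 50 to 55% and -11.7 (-16.5 to -7.13) at 55 to 60%. The RUNX difference remained between -19.8 and -13.8 points in the same bands, and the AP1 difference between -17.7 and -14.6.

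T-box letters (AGGTGTGA), recognized by factors such as Brachyury and Eomes, were more frequent on the HB side. They were present in 5.53% of HB-only and 1.57% of HP-only regions, 3.52 times as often, a difference of 3.96 points (3.35 to 4.54) against 0.324 reversed. Shared regions had 2.02% and genome windows 2.00%. The difference was between 4.14 and 5.45 points in the bands from 40 to 55% GC and 1.08 (-1.20 to 2.74) at 55 to 60%. TCF7L letters (CTTTGA), read by the effectors of Wnt signaling, were in 36.9% against 31.7%, a difference of 5.19 points (3.48 to 6.87), where the reversed letters gave -3.05. The octamer gave 3.33% against 1.78%, a difference of 1.55 points (0.996 to 2.07) with -0.136 reversed. Both octamer shares lay below the 4.48% of genome windows. GFI1 letters (AATCACNGC) gave 1.64% against 0.646%, a difference of 0.997 points (0.625 to 1.34) with 0.0877 reversed. The reversed octamer was in only 0.117% of HB-only and 0.254% of HP-only regions, and reversed GFI1 letters in 0.341% and 0.254%. Both reversed forms spell out a CG that the true letters do not, so they are a weak control. SP1 letters (CCCGCCCC), 8.80% against 3.51%, had a difference of 5.30 points but 5.47 when reversed, and OTX-GSC letters (TAATCC) one of 4.81 but 3.98 reversed, so neither stood apart from its control. The reversed SP1 letters, CCCCGCCC, are nearly the same run of C and G. TEAD letters (CATTCC) were in 34.6% and 33.7%, a difference of 0.881 points whose interval includes 0 (-0.832 to 2.58), against -1.54 reversed, and were more frequent in both classes than in genome windows, at 25.3%. In the central 200 bp the TEAD difference was 1.75 points (0.359 to 3.10), which left out 0. Within the GC bands the TEAD difference was between 0.521 and 2.81 points from 40 to 55% GC and 5.45 points at 55 to 60% (0.499 to 10.1), where the interval left out 0.

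**Figure D4:**
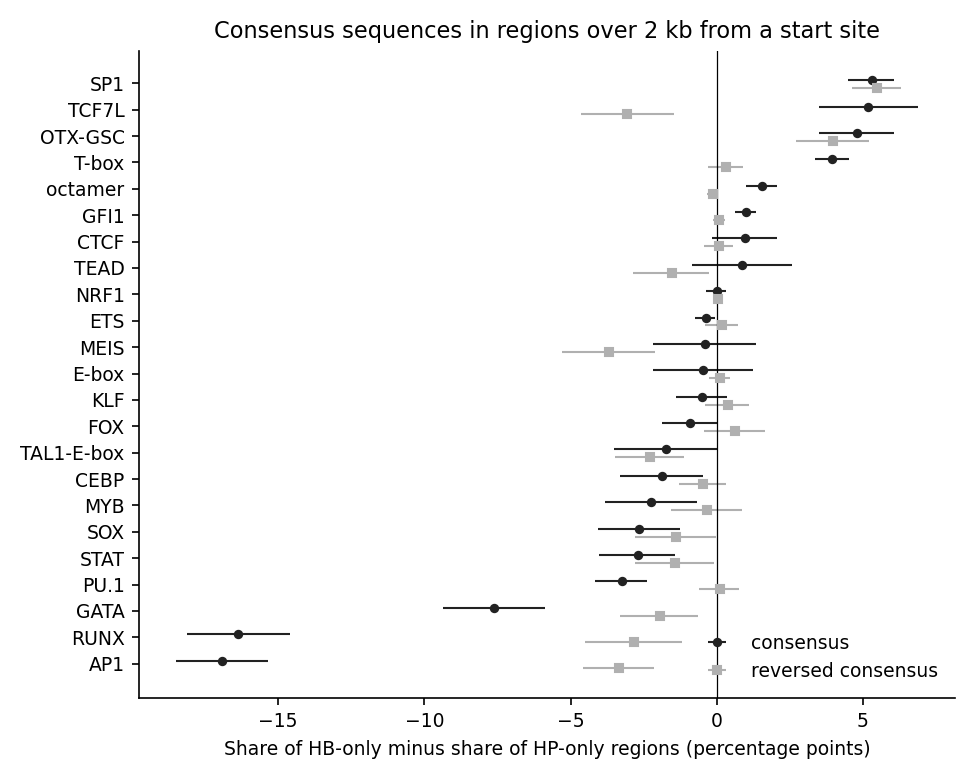
Difference in the share of regions beyond 2 kb with each consensus, HB-only minus HP-only in percentage points, with 95% Newcombe intervals for counting error, for the true and the reversed letters. AP1 and RUNX lie at -16.9 and -16.4, while T-box and TCF7L lie above 0 and their reversed letters do not follow.

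Position within the regions separated the same motifs. Matches were counted per 1000 regions by distance from the middle of the site. In HP-only regions RUNX matches numbered 183 in the innermost 50 bp and 90.9 between 450 and 500 bp, whereas in HB-only regions they were 76.8 and 82.1, with no peak at the middle. AP1 matches were 129 and 30.4 in HP-only regions and 37.2 and 27.7 in HB-only regions. T-box matches had the reverse profile, 16.2 and 5.87 in HB-only and 2.08 and 7.38 in HP-only regions. GATA and TEAD matches were central in both classes: GATA had 147 and 51.9 in HP-only and 109 and 54.5 in HB-only regions, and TEAD had 97.8 and 54.0 in HP-only and 120 and 56.9 in HB-only regions. The co-occurrence of motifs was compared with the product of their separate shares. GATA with RUNX was in 19.4% of HP-only regions, where the product was 19.0%, and GATA with TEAD in 11.8% of HB-only regions, where it was 11.2%. In shared regions GATA with TEAD was in 9.36% (8.46 to 10.4), above the product of 7.65%.

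**Figure D5:**
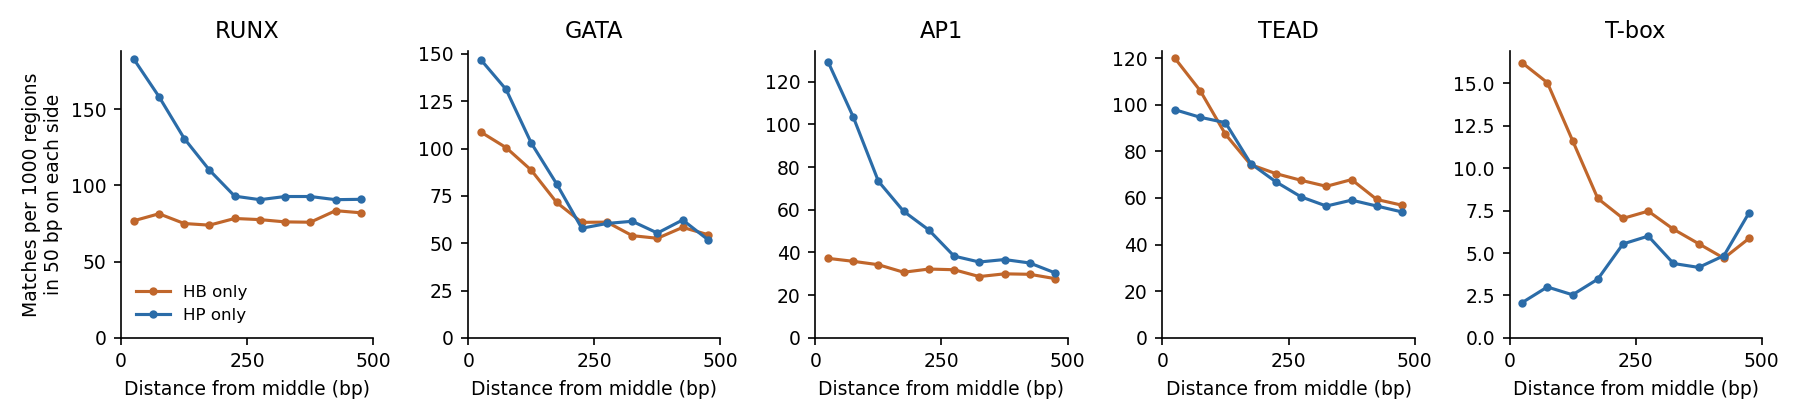
Matches per 1000 regions by distance from the middle of the site (bp) for 5 consensus sequences in HB-only and HP-only regions beyond 2 kb. RUNX and AP1 peak at the middle in HP-only regions, T-box in HB-only regions, and GATA and TEAD in both.

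The motifs also separated regions of a class by the other stages in which they were listed. HB-only regions listed in MES had GATA letters in 23.3% of cases and those not listed there in 40.6%, a difference of -17.2 points (-19.1 to -15.4), with -1.83 for the reversed letters. HB-only regions listed in HE had T-box letters in 3.16% against 6.56% for those not listed there, a difference of -3.40 points with -0.237 reversed. HP-only regions listed in HE had AP1 letters in 36.8% against 26.0%, a difference of 10.8 points (8.07 to 13.6), TEAD letters in 35.9% against 30.7%, and PU.1 letters in 8.99% against 5.48%. The reversed letters gave 1.66, -0.833 and -0.673 points. HP-only regions that were also listed in MAC carried AP1 letters in 43.0% against 27.1% and PU.1 letters in 12.6% against 5.07% for those not listed in MAC, with reversed differences of 2.01 and 1.45 points. These same regions had fewer GATA letters, 29.9% against 44.8%, and fewer TEAD letters, 29.3% against 35.8%, where the reversed letters gave -0.112 and -0.467 points. For RUNX letters the shares were 48.1% and 47.3%, a difference of 0.813 points (-2.36 to 3.99) with 0.547 reversed.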

How the data were processed

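DNaseI-seq was analysed for HB and HP (n = 1 list per stage), with the lists of MES, HE and MAC used for comparison. Per the study's methods, the authors trimmed reads with CutAdapt, used Bowtie to place them on mm10, discarded reads without a unique position and, with Picard, duplicates, and took DHSs from DFilter. Tool versions are not given in the sources used here. The values deposited by the authors are start and end positions in bp, without score or read count, in steps of 100 bp. Totals of aligned reads, which the study lists, were not used here, and positions alone give no detection floor.

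Windows of 500 bp around site middles were merged where 25% or more of their length overlapped. GRCm38.p6 with RefSeq annotation has the primary chromosomes of mm10, and 0 sites ran past a chromosome end. Start sites were 25999 positions of curated mRNAs of 21000 protein-coding genes, and 52935 windows every 50 kb gave the genome background. Regions were classed by their center. Shares have 95% Wilson and differences 95% Newcombe intervals, not adjusted over the 23 consensus sequences, and a difference was called where its interval left out 0. Scripts used Python 3.11.15, numpy 2.4.6, pysam 0.24.0, samtools 1.23.1 and matplotlib 3.10.9, and were tested on simulated data.

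The members and lists were chosen with earlier results of these data known. Named genes were the 10 with most HB-only and the 10 with most HP-only regions within 100 kb, and list genes with a promoter site in 1 of the 2 stages. Others were named after their values were seen. The first set of sequences was the widest site per class beside a list gene, outside exons, 1 per gene, and shared regions are not printed. Alternatives changed the merge, widths, promoter distance, TSS set and search window. Those for AP1, T-box and PU.1 were added after seeing the data. Some list genes are counted but not reported by name here, and 1 region chosen for printing is not reported.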

Additional observations from a re-analysis of the deposited data

How the results depend on the processing

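Leaving out the reversed letters, which are a control, 76 values were recomputed for 16 results: 46 stayed within the limit set for each, 29 moved and 1 changed a call. Over all regions beyond 2 kb, the RUNX, AP1 and GATA differences kept their sign in each alternative that used the true letters, RUNX between -19.4 and -13.7 points, AP1 between -17.4 and -12.7 and GATA between -12.8 and -3.80. Within GC bands GATA did not, at 4.19 points (-0.641 to 8.99) from 40 to 45% GC and -1.19 (-4.27 to 1.88) from 45 to 50%. For TEAD, the central 200 bp gave 1.75 points, which left out 0, and the reversed letters gave -1.54. The reversed letters gave 0.104 for PU.1 and 0.324 for T-box. Keeping only sites no narrower than their list's median left 6222 HB-only, 1225 HP-only and 7872 shared regions, with promoter shares of 41.7%, 29.2% and 86.8% and CpG-rich shares of 35.5% (HB-only) and 18.3% (HP-only). With the HB list cut to its widest sites, HB-only regions numbered 6340, their promoter share was 27.3% and CpG-rich share 21.8%. The HP-only shares were then 16.4% and 9.24%, the shared promoter share 76.7%, and genes with an HP-only promoter 562. Start sites of all transcripts gave promoter shares of 31.1%, 23.1% and 77.8%, and a limit of 1 kb gave 19.2%, 10.2% and 69.8% (HB-only, HP-only and shared). An overlap of 250 bp gave 23.2% and 17.0% for promoters and 18.3% and 9.59% for CpG-rich regions (HB-only and HP-only). Overlap of the deposited intervals instead of windows gave 20.6% and 9.06%, and 16.5% and 3.11%. The cause of these shifts was not tested beyond what each setting changes by construction. Read totals were not used here, and positions alone give no floor on detection.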
